A study of Homo sapiens with 3 samples.

Results

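The genes of the proteasome were measured by RNA sequencing in QBC-939 cells, an established line from cholangiocarcinoma, a cancer of the bile ducts. Members are rows with a protein-coding transcript whose symbol starts with PSMA to PSMG followed by a digit and holds no hyphen, which gives 48 of the 30923 genes in the table. Of these, 46 encode subunits, regulators or assembly factors of the proteasome. The other 2, PSMC3IP (a recombination cofactor) and PSME3IP1 (a protein that binds the activator PSME3), carry the name only. There was 1 library per group: cells overexpressing miR-182-5p, cells overexpressing miR-183-5p, and cells with a control that the labels call NC. The genotype of all 3 groups is given as WT, the titles of the microRNA samples end in "mim", and the time of harvest and the make-up of NC are not given in the labels. Without replicates no test between conditions exists, so the intervals below are exact 95% intervals that cover counting error only.

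The proteasome is the barrel-shaped protease that degrades ubiquitin-tagged proteins in the cytosol and nucleus. Its 20S core consists of rings of alpha subunits (PSMA genes) around rings of beta subunits (PSMB genes), some of which carry the proteolytic sites. The 19S cap recognises, unfolds and feeds in substrates with ATPases (PSMC genes) and non-ATPase subunits (PSMD genes). Core and cap together form the 26S proteasome. Interferon induces alternative catalytic subunits, the immunoproteasome, whose products suit presentation on MHC class I. Dedicated chaperones assemble the particle, and the transcription factor NFE2L1 raises its genes when proteasome activity is low.

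The libraries held 61709874 gene counts for miR-182-5p, 67427313 for miR-183-5p and 64516706 for NC. The 6 bile duct epithelium markers looked up were all detected, with summed CPM (counts scaled to the library total) of 929.6, 898.8 and 913 in the same order, although KRT7 had only 381, 469 and 322 counts. Leukocyte markers summed to between 0.635 and 1.48 CPM over the libraries, endothelial markers to between 1.24 and 2.22, and hepatocyte markers to between 0.666 and 1.0. Fibroblast markers summed to 23.7 CPM in miR-182-5p cells against 14.9 in NC cells, mostly COL1A1, and the part of this in the results was not tested. Mitochondrially encoded genes took 16.7%, 16.1% and 13.5% of counts in the order given above, and values without them are among the settings at the end.

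The overexpressed microRNAs come from neighbouring genes on chromosome 7. Their mature sequences, from RefSeq on GRCh38.p14, are shown because the seed (bases 2 to 8, in capitals) decides which messages they can pair with, and the 2 seeds differ.
hsa-miR-182-5p: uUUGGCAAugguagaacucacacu
hsa-miR-183-5p: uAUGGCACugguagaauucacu
Few proteasome messages carry a match to these seeds. Searching the longest annotated 3' UTR of each gene (GENCODE 29, GRCh38) for the 7 bases that pair with the seed found a miR-182-5p match in 4 of 47 members (8.51%), against 15.1% of 10796 measured genes. A miR-183-5p match was in 3 of 47 (6.38%), against 12.2%. The members' 3' UTRs are short, with a median of 379 nucleotides against 1313 for all measured genes. PSMA2 and PSMA4 held both matches. Those of PSMA4, starting at 78551392 for miR-182-5p and 78550658 for miR-183-5p, lie beyond its deposited gene end of 78549186. They are inside the longer GENCODE 29 3' UTR and are included in the numbers given here. The matches below, in capitals, are given 5' to 3' on the message; they are descriptions of letters and not shown to be used.
PSMA2, miR-182-5p match at chr7:42917326-42917332 (minus strand): tgaagactacaTTGCCAAgcagaatgatga
PSMB2, miR-182-5p match at chr1:35600720-35600726 (minus strand): tcagtgtttttTTGCCAAtctggatctctt
PSMA2, miR-183-5p match at chr7:42917116-42917122 (minus strand): ggtacttttagGTGCCATtaggtattgatc
PSMA5, miR-183-5p match at chr1:109399720-109399726 (minus strand): acattttctcaGTGCCATatgcaagttacc
Of the 4 members with a miR-182-5p match, PSME3IP1 carries the proteasome name only and stood at 1.01. The 4 had a median CPM ratio of 0.807 in miR-182-5p cells against NC, and the 43 without a match 0.818. For miR-183-5p the medians were 0.894 with a match and 0.910 without.

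Most proteasome genes were well expressed, and 47 of 48 reached an FPKM (fragments scaled to gene length and library total) of 1 in at least 1 library. The exception was the immunoproteasome gene PSMB9. In NC cells the 14 constitutive core genes ran from an FPKM of 10.4 (PSMA6) to 191 (PSMB3) with a median of 41.5. The 17 cap genes ran from 4.67 (PSMD6) to 71.4 (PSMD2) with a median of 30.6. The deposited FPKM thus spanned 18.4-fold within the core, whose subunits are present in equal numbers in the particle. If FPKM was scaled to the summed gene counts, which was assumed here, the length behind it was longer than the principal transcript. The deposited values then imply 7828 nucleotides for PSMA6, whose principal transcript has 1029, and 1404 for PSMB3, whose principal transcript has 773. Per kilobase of the principal transcript the range within the core was 10.1-fold, and the lowest gene was PSMA5 rather than PSMA6. In the cap it was 7.96-fold in place of 15.3-fold, with PSMC1 lowest.

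**Figure D1:**
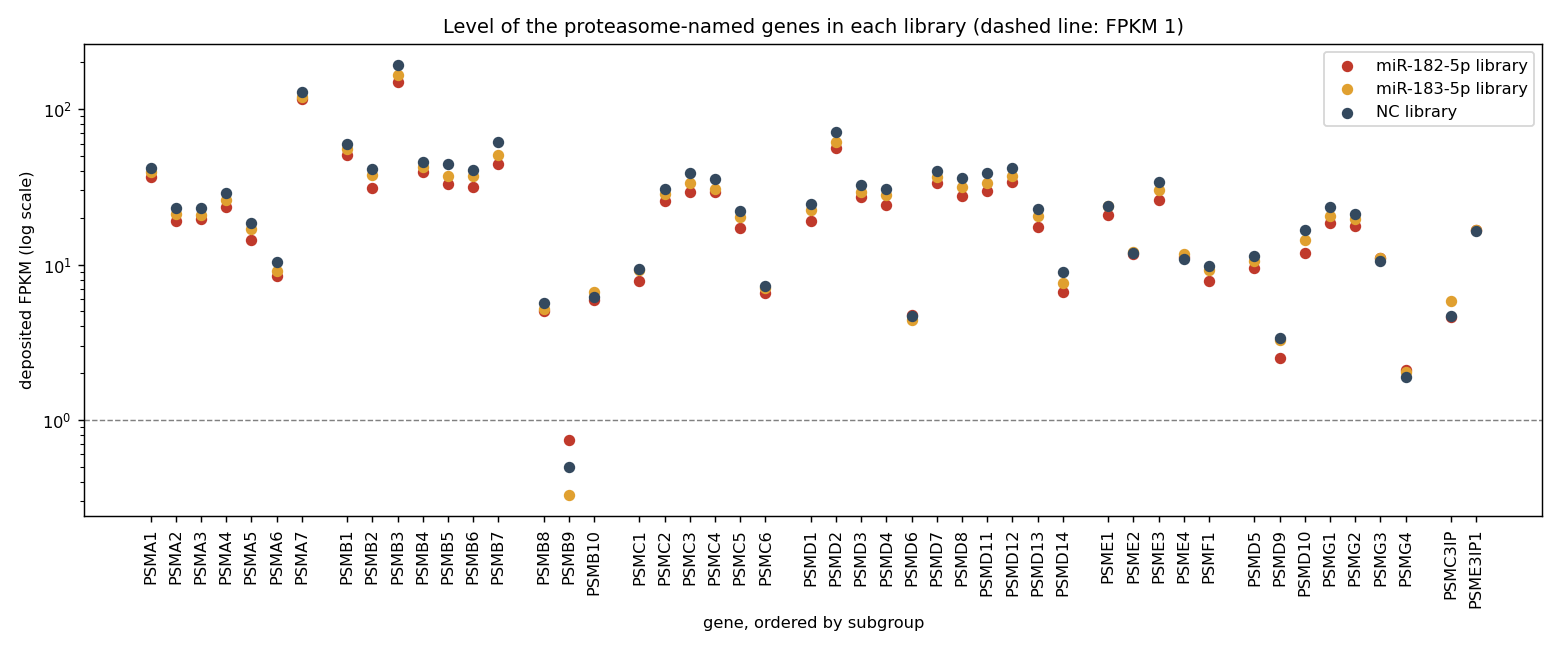
Deposited FPKM (log axis) of the 48 members, ordered by subgroup, with 1 point per library. PSMB3 and PSMA7 are highest, PSMB9 lies below an FPKM of 1 in all 3 libraries, and for most core and cap genes the miR-182-5p point lies lowest and the NC point highest.

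The core and cap genes were lower in miR-182-5p cells than in NC cells, with 24 of 31 called and 30 of 31 intervals below 1, and miR-183-5p cells lay between. A gene was called lower or higher when its CPM ratio was at least 1.2-fold from 1 and the interval excluded 1. In miR-182-5p cells 31 of 47 measured members were called lower and 0 higher, where this rule calls 19.5% of 13454 measured genes lower and 22.5% higher. In miR-183-5p cells 2 of 47 were lower and 1 higher, against 9.97% and 10.2% of all measured genes, so the called share there was at or below the background. An interval excludes 1 more readily at higher counts, and 38 of 47 members but 4337 of 13454 measured genes had at least 50 CPM. Shares by the interval alone are therefore not like for like, and none was computed for genes of similar counts. By the interval alone, 39 of 47 were below 1 and 1 above in miR-182-5p cells, against 38.2% and 36% of measured genes, and 37 below and 2 above in miR-183-5p cells, against 36.2% and 24.9%. In the latter their median ratio was 0.909, while the median over all measured genes was 0.979. In miR-182-5p cells it was 0.810 against 0.994. Both comparisons use the same NC library, so a high or low value there moves both. In bulk RNA, fewer cells expressing a gene and less of its RNA per cell cannot be told apart. The direct comparison of the microRNA libraries does not use it: 4 of 47 were lower and 0 higher in miR-182-5p cells (background 8.68% and 16.4%), 41 of 47 had intervals below 1 and 1 above (background 29.6% and 35.5%), and the median ratio was 0.898 against 1.02 for all measured genes.

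**Figure D2:**
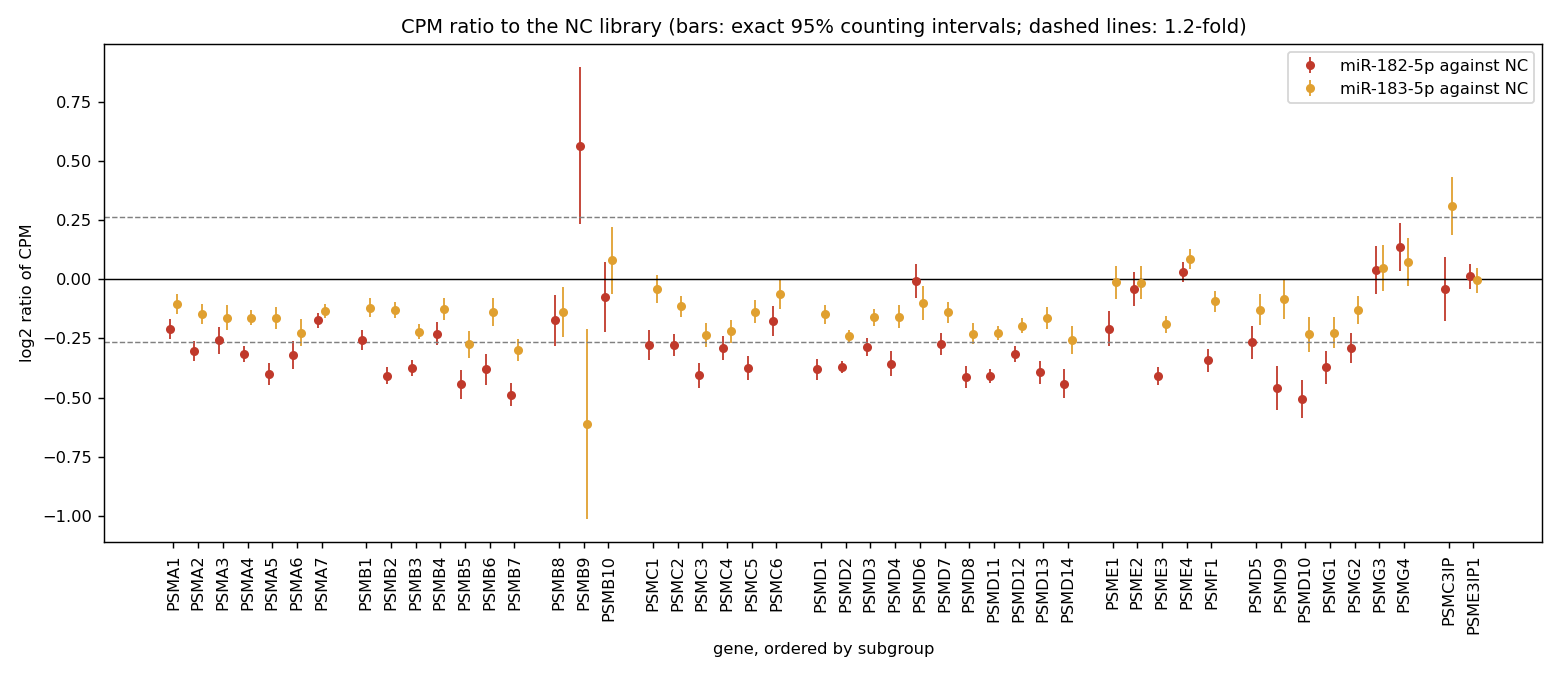
Log2 ratio of CPM to NC cells for each member, red for miR-182-5p cells and yellow for miR-183-5p cells, with exact 95% counting intervals; dashed lines mark 1.2-fold. Core and cap genes lie below 0 in both comparisons, with PSMD6 at the line (a ratio of 0.995) for miR-182-5p, while PSMB9 departs in opposite directions.

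Of the 31 constitutive core and cap genes, 30 had CPM in the order miR-182-5p below miR-183-5p below NC, and PSMD6 was the exception. Over all measured genes this order was held by 29.4%, and over those with a mean of at least 50 CPM by 43.1%. It was also held by all 8 genes of the CCT chaperonin, a protein-folding complex described below. Their highest ratios were 0.897 for miR-182-5p over miR-183-5p and 0.979 for miR-183-5p over NC. The share holding this order among expressed genes with short transcripts was not computed. All core and cap genes together took 0.378% of counts in miR-182-5p cells (0.377 to 0.380), 0.420% in miR-183-5p cells (0.419 to 0.422) and 0.475% in NC cells (0.473 to 0.477). The 31 ratios were close together: their log2 values had an SD of 0.099 in miR-182-5p cells, where genes of at least 50 CPM had 0.269. The 8 CCT ratios in miR-182-5p cells were also close together, from 0.731 to 0.878, beside 0.713 to 0.995 for the 31. Neither the order nor the narrow spread was thus particular to the proteasome.

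The alpha ring genes, which form the outer gate of the core, were at a median of 0.810 times NC in miR-182-5p cells, with 4 of 7 called lower and all 7 intervals below 1. Over all measured genes 19.5% were called lower there, and 38.2% had intervals below 1. PSMA5 had the lowest ratio of the alpha genes for miR-182-5p. Its FPKM was 14.3 in miR-182-5p cells, 16.9 in miR-183-5p cells and 18.6 in NC cells. Its ratio to NC was 0.758 (0.733 to 0.784) for miR-182-5p and 0.893 (0.866 to 0.921) for miR-183-5p. PSMA7, the most abundant alpha gene, was nearest to 1 for miR-182-5p, and PSMA1 at 0.930 for miR-183-5p. The PSMA7 FPKM of 116, 119.5 and 129 gave 0.887 (0.868 to 0.907) and 0.912 (0.892 to 0.931). PSMA4 had 0.803 (0.784 to 0.822) in miR-182-5p cells and PSMA6 0.801 (0.768 to 0.835). PSMA1, PSMA2, PSMA3 and PSMA6 each share part of their span with another same-strand gene, and some of their reads cannot be assigned with certainty.

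Of the constitutive beta genes 5 of 7 were called lower in miR-182-5p cells, where 19.5% of all measured genes were. Of the 3 with proteolytic sites, 2, PSMB7 and PSMB5, had the lowest ratios of the beta genes. PSMB7, the trypsin-like subunit, had an FPKM of 44.3 in miR-182-5p cells, 50.5 in miR-183-5p cells and 61.3 in NC cells. Its ratios of 0.713 (0.690 to 0.737) and 0.812 (0.787 to 0.838) were the lowest of the core in either comparison. PSMB5, the chymotrypsin-like subunit and the main target of proteasome inhibitors, had an FPKM of 32.9, 37.1 and 44.2, with ratios of 0.735 (0.705 to 0.767) and 0.827 (0.795 to 0.861). These were the 2 members called lower in miR-183-5p cells, and 0 were without mitochondrially encoded genes. PSMB5 shares part of its span with AL132780 on the same strand. PSMB6, the caspase-like subunit, was the middle beta gene in both comparisons, with 0.768 (0.735 to 0.804) in miR-182-5p cells and 0.909 (0.872 to 0.948) in miR-183-5p cells. Among the noncatalytic beta genes, PSMB2 had the largest separation between the microRNA libraries, at 0.826 (0.805 to 0.847) for miR-182-5p over miR-183-5p. PSMB3, the most abundant member, had an FPKM of 149.6, 166 and 191 and a ratio of 0.771 (0.754 to 0.789) for miR-182-5p. PSMB1 at 0.838 and PSMB4 at 0.853 were lower by less than 1.2-fold.

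In the cap, 15 of 17 genes were called lower in miR-182-5p cells and 0 of 17 in miR-183-5p cells. Over all measured genes these shares were 19.5% and 9.97%, and 4.93% at 50 CPM or more in miR-183-5p cells. No departure from the background can be read from the 0 of 17. The ATPases, which unfold the substrate, ran from PSMC3 at 0.754 (0.727 to 0.783) to PSMC6 at 0.885 (0.846 to 0.925). PSMC1 was the cap gene nearest to NC in miR-183-5p cells, at 0.973 (0.933 to 1.01), and stood at 0.825 (0.789 to 0.863) in miR-182-5p cells. Among the non-ATPases 10 of 11 were called lower. PSMD14, the enzyme that removes ubiquitin chains from substrates at the cap, was lowest, with an FPKM of 6.68 in miR-182-5p cells, 7.60 in miR-183-5p cells and 8.94 in NC cells. Its ratios were 0.737 (0.706 to 0.769) and 0.838 (0.804 to 0.872). PSMD14 and PSMC2 each share part of their span with another same-strand gene. The scaffold gene PSMD2, with the most counts of all members, had 20312, 24330 and 27474 counts, and ratios of 0.773 (0.759 to 0.787) and 0.847 (0.833 to 0.862). PSMD11, a lid subunit linked to the level of assembled 26S particles in stem cells, had 0.753 (0.738 to 0.769) and 0.854 (0.838 to 0.871). The ubiquitin receptor PSMD4 had 0.781 (0.754 to 0.809) in miR-182-5p cells.

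PSMD6, a lid subunit (chromosome 3, 64010550 to 64024010, minus strand), was the cap gene that stood apart. Its FPKM was 4.71 in miR-182-5p cells, 4.42 in miR-183-5p cells and 4.67 in NC cells. The ratio to NC was 0.995 (0.947 to 1.05) for miR-182-5p and 0.933 (0.888 to 0.979) for miR-183-5p. It was the 1 core or cap gene with a higher level in miR-182-5p than in miR-183-5p cells, at 1.07 (1.02 to 1.12). Under the scaling assumed above, the deposited FPKM of PSMD6 implies 10890 nucleotides, against a principal transcript of 1430. On the opposite strand it overlaps PSMD6-AS2, which had 281 counts in miR-182-5p cells against 189 in NC cells, while PSMD6 had 3123 and 3282. Whether the counting used strand is not given in the sources used here, and the part of the antisense gene in the PSMD6 value was not tested.

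Among the alternative activators and the inhibitor, the members differed from each other. PSME3, the nuclear activator PA28 gamma, had an FPKM of 26, 30.3 and 34.1 in the same order of libraries (miR-182-5p first, NC last) and a ratio of 0.754 (0.734 to 0.774) for miR-182-5p. PSMF1, the inhibitor PI31, was at 0.789 (0.763 to 0.816). The interferon-inducible activator pair PSME1 and PSME2 lay nearer to NC: PSME1 was at 0.865 (0.822 to 0.911) and PSME2 at 0.972 (0.925 to 1.02), and in miR-183-5p cells they were at 0.992 and 0.990. PSME4, the activator PA200, was not lower in either library, with 1.02 (0.992 to 1.05) and 1.06 (1.03 to 1.09). PSMF1 and PSME2 share part of their spans with other same-strand genes.

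The assembly chaperones also split. PSMD10, also known as the oncoprotein gankyrin and a chaperone of the ATPase ring, had the lowest ratio of all members in miR-182-5p cells. Its 2089 counts there, 2761 in miR-183-5p cells and 3105 in NC cells gave 0.703 (0.665 to 0.744) and 0.851 (0.808 to 0.896). PSMD9, another ATPase chaperone, was at 0.727 (0.682 to 0.775) in miR-182-5p cells but at 0.944 in miR-183-5p cells, and its ratio between the microRNA libraries of 0.770 (0.722 to 0.821) was the lowest of the members. It overlaps another gene on the same strand. The core chaperones PSMG1 and PSMG2 stood at 0.773 (0.737 to 0.811) and 0.818 (0.783 to 0.855). PSMG3, the partner of PSMG4, stood at 1.03 (0.958 to 1.1). PSMG4 had 1611, 1685 and 1531 counts and the highest ratio of the measured members in miR-182-5p cells, 1.1 (1.03 to 1.18). Its FPKM of 2.11, 2.02 and 1.89 was the lowest of the measured members. Under the scaling assumed above it implies 12546 nucleotides, against a principal transcript of 838. PSMG4 overlaps SLC22A23 and TUBB2B on the opposite strand, and their part in its value was not tested. The 2 name-only genes were near 1 in miR-182-5p cells, PSMC3IP at 0.971 and PSME3IP1 at 1.01. PSMC3IP was the member called higher in miR-183-5p cells, with 1208 counts against 932 in NC, or 1.24 (1.14 to 1.35).

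Of the 2 measured immunoproteasome genes 0 were called lower in either comparison with NC. The rule calls 19.5% of all measured genes lower for miR-182-5p and 9.97% for miR-183-5p. No departure from those shares can be read from 2 genes. PSMB8, which replaces PSMB5, had 1289 counts in miR-182-5p cells, 1444 in miR-183-5p cells and 1520 in NC cells, and its ratios were 0.887 (0.823 to 0.956) and 0.909 (0.845 to 0.978), both below 1 as for PSMB5. PSMB10, which replaces PSMB7, had 710, 863 and 781 counts, and both intervals against NC included 1, at 0.95 (0.857 to 1.05) and 1.06 (0.959 to 1.17). PSMB10 shares part of its span with AC040162 on the same strand. PSMB9, which replaces PSMB6, had 184, 89 and 130 counts. It stood at 1.48 (1.18 to 1.87) in miR-182-5p cells and at 0.655 (0.495 to 0.864) in miR-183-5p cells, a ratio of 2.26 (1.74 to 2.94) between them. PSMB9 was below the FPKM filter and is not in the counts above. Its span (chromosome 6, 32844136 to 32859851) overlaps PSMB8-AS1 on its own strand and PSMB8 and TAP1 on the other, and its reads cannot be assigned with certainty.

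Within a library the share of a catalytic pair's counts that comes from the immunoproteasome gene does not depend on the scaling of the library. PSMB8 took 25.7% of the PSMB8 and PSMB5 counts in miR-182-5p cells (24.5 to 26.9), 23.9% in miR-183-5p cells (22.9 to 25) and 22.3% in NC cells (21.3 to 23.3). PSMB10 took 10.9% (10.2 to 11.7), 10.7% (10.0 to 11.4) and 8.42% (7.86 to 9.0) of its pair. PSMB9 took 5.22% (4.50 to 6.0), 2.02% (1.62 to 2.48) and 2.78% (2.33 to 3.29). Over the 3 pairs the share was 14.5%, 12.9% and 11.7%. The miR-182-5p share was above the NC share in all 3 pairs with intervals that do not overlap, and for PSMB8 and PSMB10 the denominators, PSMB5 and PSMB7, were what differed most. Per kilobase of the principal transcript, the share of PSMB8 in NC was 24.8%, that of PSMB10 6.89% and that of PSMB9 3.02%.

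**Figure D3:**
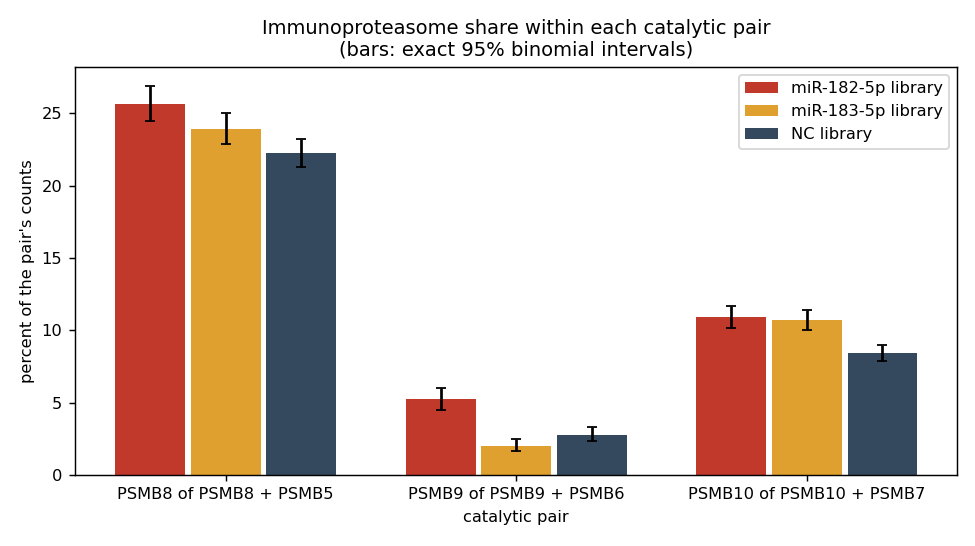
Percent of the counts of each catalytic pair that come from the immunoproteasome gene, in each library, with exact 95% binomial intervals. The miR-182-5p bar is highest in all 3 pairs, and for PSMB9 the miR-183-5p bar is lowest.

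The promoters of the members were searched for 4 short motifs on both strands, since many members were lower together. RefSeq windows (250 bases before to 50 after each start, GRCh38.p14) were found for 42 of the 48. TGACNNNGC, the letters of the antioxidant response element to which NFE2L1 and NFE2L2 bind with small MAF proteins, was in 15 of 42 members (35.7%) and in 16.1% of 27305 genes. PSMA4 and PSMB3 are shown as examples, with the motif in capitals.
PSMA4, chr15:78540645-78540683 (plus strand): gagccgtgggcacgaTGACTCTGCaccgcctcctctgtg
PSMB3, chr17:38752622-38752660 (plus strand): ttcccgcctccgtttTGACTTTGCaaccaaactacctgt
The median ratio in miR-182-5p cells was 0.811 for the 14 measured members with these letters and 0.810 for the 27 without. CCGGAAG, a binding sequence of ETS factors, was in 38.1% of members and 12.2% of genes, and CCAAT in 50% and 39.7%. The 27305 genes were not limited to measured ones, so these shares are not like for like. The medians were 0.825 with CCGGAAG and 0.803 without, and 0.772 with CCAAT and 0.825 without.

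The sequence GAAA, any 2 bases, GAAA, the core of the interferon-stimulated response element, was in 7 of 42 members (16.7%). It was also in 4.38% of the 27305 genes, again not limited to measured ones. In 5 of the 7 it was spelled identically, as GAAAGCGAAA on one strand or the other, a spelling found in 34 of 27305 genes (0.125%); this spelling was singled out after the sequences and values were seen. The 5 windows are shown because their genes are the interferon-inducible members PSMB8, PSMB10, PSME1 and PSME2, and the chaperone PSMG4.
PSMB8, chr6:32844027-32844066 (minus strand): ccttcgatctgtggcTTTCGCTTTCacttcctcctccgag
PSMB10, chr16:67936847-67936886 (minus strand): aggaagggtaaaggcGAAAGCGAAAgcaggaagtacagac
PSME1, chr14:24136184-24136223 (plus strand): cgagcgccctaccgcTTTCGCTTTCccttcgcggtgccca
PSME2, chr14:24146614-24146653 (minus strand): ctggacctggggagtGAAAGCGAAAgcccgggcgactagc
PSMG4, chr6:3258899-3258938 (plus strand): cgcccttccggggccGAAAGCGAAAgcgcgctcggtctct
In miR-182-5p cells 0 of these 5 genes were called lower, where 19.5% of all measured genes were, and no departure from that share can be read from 5 genes. Their ratios were 0.887, 0.95, 0.865, 0.972 and 1.1 in the order printed. The other 2 members with the looser motif, PSMA4 and PSMB4, were at 0.803 and 0.853. The window of PSMB9 held no match to these letters.

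Genes that work with the proteasome under other names differed by list, beside the 19.5% of all measured genes called lower and 22.5% called higher for miR-182-5p. Of 11 measured accessory factors 4 were called lower in miR-182-5p cells and 0 higher: TXNL1 at 0.721, PITHD1 at 0.766, the nuclear import factor AKIRIN2 at 0.774 and the ubiquitin ligase UBE3C at 0.811. The core maturation factor POMP was at 0.836 (0.802 to 0.872), short of the rule. Of the ubiquitin genes, the polyubiquitin gene UBB was lower at 0.775, and RPS27A, which encodes ubiquitin fused to a ribosomal protein, at 0.728. Shuttle and delivery factors were lower in 4 of 9, with NSFL1C at 0.781 and RAD23B at 0.792. The transcription factor NFE2L1 itself was at 0.979 (0.959 to 0.998) and 0.998 in the 2 microRNA libraries, and the related NFE2L2 at 0.833 (0.805 to 0.861) and 0.867. Among class I antigen processing genes 0 of 12 were lower and 1, TAPBP, was higher at 1.33 (1.28 to 1.37); TAP1, the neighbour of PSMB9, was at 1.06 (1.0 to 1.12) and 1.07.

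Other complexes also held genes called lower, beside the same 19.5% of all measured genes (22.6% at 50 CPM or more, and 46.9% of those with short transcripts). The COP9 signalosome, built on the same plan as the lid, had 6 of 10 genes lower in miR-182-5p cells with a median ratio of 0.823. The CCT chaperonin, a ring-shaped complex that folds proteins, had 6 of 8 lower with a median of 0.777, below the 0.801 of the 31 core and cap genes. In miR-183-5p cells the medians were 0.926, 0.936 and 0.895 for these 3 sets.

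**Figure D4:**
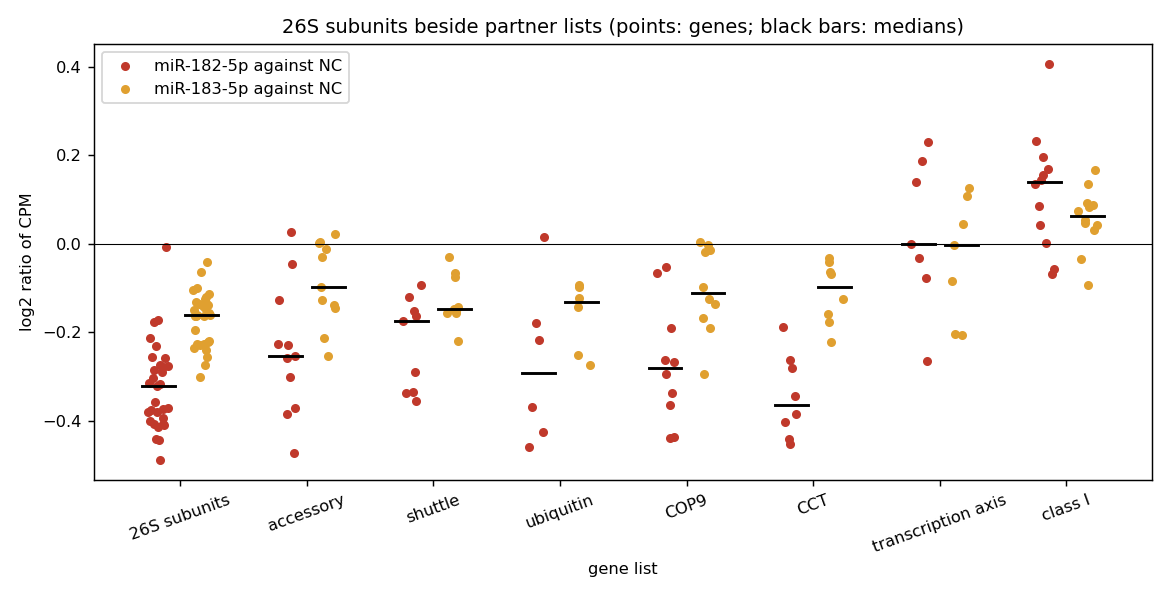
Log2 ratio of CPM to NC cells for the 31 core and cap genes and 7 lists of partner genes; points are measured genes, red for miR-182-5p and yellow for miR-183-5p, and black bars are medians. The medians of the CCT and COP9 lists (0.777 and 0.823) lie near that of the 26S subunits (0.801) in miR-182-5p cells, and the class I list lies above 0.

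Expressed genes with short transcripts were lower in general in miR-182-5p cells, and proteasome messages are short. Their principal transcripts had a median of 1579 nucleotides, against 3631 for measured genes of at least 50 CPM. Across 4248 such genes the Spearman correlation of the log2 ratio with transcript length was 0.394, and across the 47 measured members it was -0.150; genes share libraries and are not replicates. With at least 50 CPM, 29 of 38 members were lower (76.3%) against 22.1% of 4299 other genes and 22.6% of all genes at that level; in miR-183-5p cells it was 2 of 38 (5.26%), against 4.93% of all genes at that level. When transcripts were also limited to 2000 nucleotides, a limit chosen after seeing the data, 16 of 22 members were lower (72.7%) against 46.2% of 767 other genes and 46.9% with the members included, and the median ratios were 0.791 and 0.847. In miR-183-5p cells that last comparison gave 9.09% and 11.3%, with medians of 0.896 and 0.921. Of members at this level with transcripts above 2000 nucleotides, PSMC6, PSME4 and PSME3IP1 were not called for miR-182-5p, at 0.885, 1.02 and 1.01. The others were called lower, among them PSMA4 (4411 nucleotides, 0.803), PSMD12 (4406, 0.804) and PSMD11 (4098, 0.753). The share of other long genes called lower was not computed. Whether transcript length in library preparation had a part in the lower values was not tested.

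**Figure D5:**
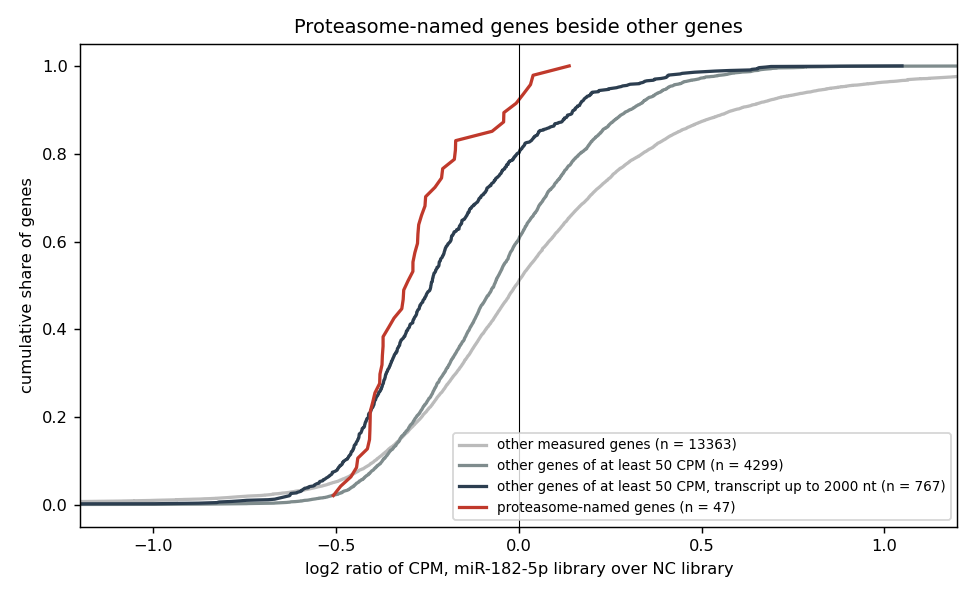
Cumulative share of genes by log2 ratio of CPM, miR-182-5p library over NC library. Above the lowest ratios the curve of the 47 measured members lies left of all others, nearest to other genes of at least 50 CPM with short transcripts (medians 0.791 and 0.847 under the same limits), while in the lower tail, the curves cross.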

How the data were processed

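Per the labels' protocols, total RNA was extracted with Trizol and sequenced on Illumina libraries. The submitters' processing notes name cutadapt 1.9, FastQC and the build GRCm38, a mouse assembly, but all gene identifiers are human. All 48 members are in GENCODE 29 (GRCh38), and for 47 both ends lie within 5000 bases of that annotation. For the aligner, counter, strand handling and annotation, the entry is: not given in the sources used here. Gene counts and FPKM values were deposited by the authors, per the file headers; the length behind FPKM is not stated. CPM was computed over all counts, and ratios carry exact conditional binomial (Clopper-Pearson) intervals at 95%, with scipy 1.17.1. The calls were also run on simulated counts that held counting error alone, the error the intervals assume. That run checks the calculation and cannot show how the calls behave under variation between cultures. Genes with FPKM of at least 1 in any library were measured (13454). TMM factors came from edgeR 4.0.16. With 1 library per group no test was possible. The principal transcript is the APPRIS-ranked one in GENCODE 29, longest on ties. Members could all be named; of partner lists, up to 4 genes with the ratios farthest from 1 in either direction, plus TAP1, POMP and NFE2L1, with 1 gene not reported here. The members and lists were chosen with earlier results of these data known.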

Additional observations from a re-analysis of the deposited data

Results flagged for a closer look

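Some of the antisense genes and pseudogenes with proteasome symbols, which the selection leaves out, held reads above the NC level. In miR-182-5p cells 4 of 5 antisense genes were higher than in NC by the same rule, whatever their FPKM: PSMA3-AS1 at 1.35 times, with 3368 against 2611 counts, PSMB8-AS1 at 1.43, PSMD6-AS2 at 1.55 and PSMG3-AS1 at 1.85. For miR-183-5p it was 0 of 5. Of the 15 pseudogenes 4 were higher for miR-182-5p and 2 for miR-183-5p. Among those higher for miR-182-5p, PSMC1P7, PSMD10P1 and PSME2P2 had 0 counts in NC, against 7, 18 and 6. Over all measured genes the shares called higher were 22.5% and 10.2%. Those genes passed the FPKM filter, which PSMB8-AS1, PSMG3-AS1 and most of the pseudogenes did not, so these shares are not like for like. The pseudogene PSMD10P2 was at 1.69 for miR-182-5p, with 142 counts against 88 in NC, and at 1.33 for miR-183-5p, with 122 counts. Its parent PSMD10 was the lowest member for miR-182-5p. The pseudogenes PSMA6P1 and PSMC2P1 were lower for miR-182-5p, at 0.441 and 0.436. For miR-183-5p, PSMC1P1 was lower at 0.786, and PSMC1P9 was lower with 0 counts against 6 in NC. How the counting treated near-identical copies and strand is not stated in the labels.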

How the results depend on the processing

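The median log2 ratios of core, cap and all members were below 0 under each scaling, unit and filter tried, in all 3 comparisons, and no called gene changed direction. For miR-182-5p against NC, the medians of -0.32 (core), -0.36 (cap) and -0.30 (all) became -0.26, -0.30 and -0.25 without mitochondrially encoded genes, -0.38, -0.42 and -0.36 with median-ratio size factors, and -0.37 for core genes without same-strand overlap. For miR-182-5p against miR-183-5p, core and cap were at -0.20 and -0.21 with TMM, and core, cap and all members at -0.22, -0.24 and -0.22 with size factors. The median of all members for miR-183-5p against NC was -0.0939 without mitochondrial genes. Without mitochondrial genes 21 members, in place of 31, were lower in miR-182-5p against NC. The counts depend on the size rule. At 1.5-fold, 0 members were lower in any comparison and 0 higher in miR-183-5p. At 1.1-fold, 24 were lower in miR-183-5p against NC and 28 in the direct comparison, and 1 was higher in miR-182-5p; by the interval alone these were 37, 41 and 1, with 2 higher in miR-183-5p and 1 higher in the direct comparison. In miR-183-5p against NC, 0 were lower without mitochondrial genes and 1 with FPKM, FPKM plus 1, FPKM plus 0.1 or without overlapping members. In the direct comparison 11 were lower with TMM and 14 with size factors. With no filter PSMB9 was added, as 1 higher member in miR-182-5p against NC and 1 in the direct comparison, and as a lower member in miR-183-5p against NC (3 in place of 2). By FPKM, the shares for miR-182-5p, then miR-183-5p, then NC were 13.3%, 12.3% and 11.3% for PSMB8, 2.31%, 0.877% and 1.21% for PSMB9, and 11.8%, 11.6% and 9.16% for PSMB10. No paired analysis was possible because each group has 1 library. The values describe these 3 libraries, and variation between cultures is unknown.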
